A study of Sus scrofa with 12 samples.

Results

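The transcripts described here encode the enzymes that place or remove methyl and acetyl groups on histones, measured in porcine oocytes during in vitro maturation. Members were taken by gene symbol, namely every symbol that begins with KMT, KDM, SETD, HDAC, PRMT or EHMT, together with EZH1, EZH2, EED, SUZ12, SETDB1, SETDB2, SUV39H1, SUV39H2, NSD1, NSD2, NSD3, DOT1L and JMJD6. This gave 65 of the 31908 genes listed, of which 30 belong to the lysine methyltransferases (with the PRC2 subunits EED and SUZ12 and 5 further SET domain proteins), 16 to the demethylases (with JMJD6), 11 to the deacetylases and 8 to the arginine methyltransferases. A mean of at least 1 FPKM was reached by 32 members and these were tested, 33 lay under it, and of the latter PRMT8, HDAC4 and KDM5D were listed at 0 in every library. The rule is wider than histone lysine enzymes, since the PRMT proteins act on arginine and SETD3 and SETD6 are known for substrates other than histones. KDM2B, KDM5C and KMT2D matched no identifier and were not analysed here.

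Histone lysine methyltransferases transfer a methyl group from S-adenosylmethionine to a given lysine, and demethylases of the LSD1 and Jumonji families take it off again. Methylation of histone H3 at lysine 4 and lysine 36 goes with active genes, whereas methylation at lysine 9 and lysine 27 and of histone H4 at lysine 20 goes with silent chromatin. Deacetylases remove acetyl groups, and in growing oocytes these enzymes set up a chromatin state that the egg carries into the embryo, while the fully grown oocyte is almost silent in transcription and lives on stored mRNA.

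Oocytes from pig ovaries were stripped of cumulus cells after 0h, 22h or 46h of in vitro maturation, with 4 libraries per stage and 20 pooled oocytes per library. The ovaries came from prepubertal gilts and no genotype separated the groups. The maturation medium held epidermal growth factor, the gonadotropins PMSG and HCG and porcine follicular fluid, so that time in culture and exposure to these cannot be told apart. The series design calls the stages GV (germinal vesicle), Pre-MI and MII (metaphase of the second meiotic division) and gives 24h for the middle one, where the sample labels give 22h, which is used here. The labels number the replicates but do not say whether they came from separate animals or cultures, so p-values measure the spread between these libraries, which may be technical.

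The files give FPKM, fragments per kilobase of transcript and per library size, which allows levels to be compared between genes per length. Total FPKM per library ranged from 697468 to 802184. The files hold no counts, but the step between low FPKM values of a gene gave relative depths of 0.895 to 1.0 at 0h (replicate 1 of 0h set to 1), 1.04 to 1.301 at 22h and 1.198 to 1.39 at 46h. Mitochondrially encoded genes took 1.79% to 3.76% of FPKM at 0h and 12.8% to 16.7% at 46h. Replicate 4 of 0h stood apart, with 7895 genes at 1 FPKM or above against 6939 to 7342 in the other 0h libraries. The sample titles read ovarian cells, and the study describes them as oocytes. That identity was borne out by oocyte markers, since 12 of 12 matched were present at each stage. Their sum was 14720 to 20380 FPKM at 0h, then 16950 to 23840 at 22h and finally 4051 to 7529 at 46h. The 14 matched markers of cumulus and granulosa cells summed to 37.7 to 86.0 FPKM at 0h, then 52.7 to 82.5 at 22h and finally 111 to 140 at 46h, almost all of it VCAN, which was at 104.6 to 135.5 at 46h, and STAR, at 3.92 to 5.97. INHA was at 0 in every library and FSHR, HAS2, AMH, INHBA and GJA1 were at 0 in every 46h library. VCAN passed as higher at 46h against 0h, and 10 of the 12 oocyte markers as lower. The part of either list in the member values was not tested.

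By 22h, 5 of the 32 members tested were higher than at 0h and 1 was lower. At 46h against 22h, 1 was higher and 7 were lower, and over the whole of maturation 6 were higher and 9 lower. A member counts as higher or lower here when the adjusted p of limma (fitted to log2(FPKM + 1), with Benjamini-Hochberg adjustment over all 7013 genes whose mean reached 1 FPKM) was under 0.05 and its fold change over 1.5. The share called among all genes tested was 7.84% higher and 18.9% lower at 22h against 0h, 9.87% and 32.6% at 46h against 22h, and 16.8% and 39.1% at 46h against 0h. The members' own shares were 15.6% and 3.12%, then 3.12% and 21.9%, and finally 18.8% and 28.1%. These 3 comparisons share libraries with one another.

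The median log2 fold change of the members was 0.32 at 22h against 0h, where that of all genes was 0.00. As deposited, it was -0.15 at 46h against 22h, beside -0.26 for all genes. At 46h against 0h it was 0.30, beside -0.25 for all genes. The sign at 46h against 22h depended on how libraries were scaled. The members' median there was 0.10 after median-of-ratios scaling (all genes -0.01), 0.35 after quantile normalization (all genes 0.21) and -0.23 in TPM (all genes -0.34). At 46h against 0h the members' median was 0.51, 0.99 and 0.26 in that order, and -0.02 with no filter (62 members). Among the deposited values, 24 of 32 members had a positive change at the first step, 10 at the second and 19 over both. At the second step 19 were positive after median-of-ratios scaling, 23 after quantile normalization and 7 in TPM. Over both steps these counts were 20, 24 and 19. Changes on the log2(FPKM + 1) scale understate those of genes near 1 FPKM. In pooled oocytes, fewer oocytes with a transcript and less of it in each oocyte cannot be told apart.

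By class at 46h against 0h, 8 of 17 lysine methyltransferase members were lower and 2 higher, 3 of 7 demethylases were higher and none lower, 1 of 3 deacetylases was higher and 1 lower, and none of the 5 arginine methyltransferases passed. The shares among all genes tested were 16.8% higher and 39.1% lower, and the difference between classes was not tested. Counting members that did not pass as well, the plot of changes by gene has 6 of 7 demethylases (all but KDM4C) to the right of 0 in this comparison. Of all 32 members tested, 19 lie to the right of 0 there.

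**Figure D1:**
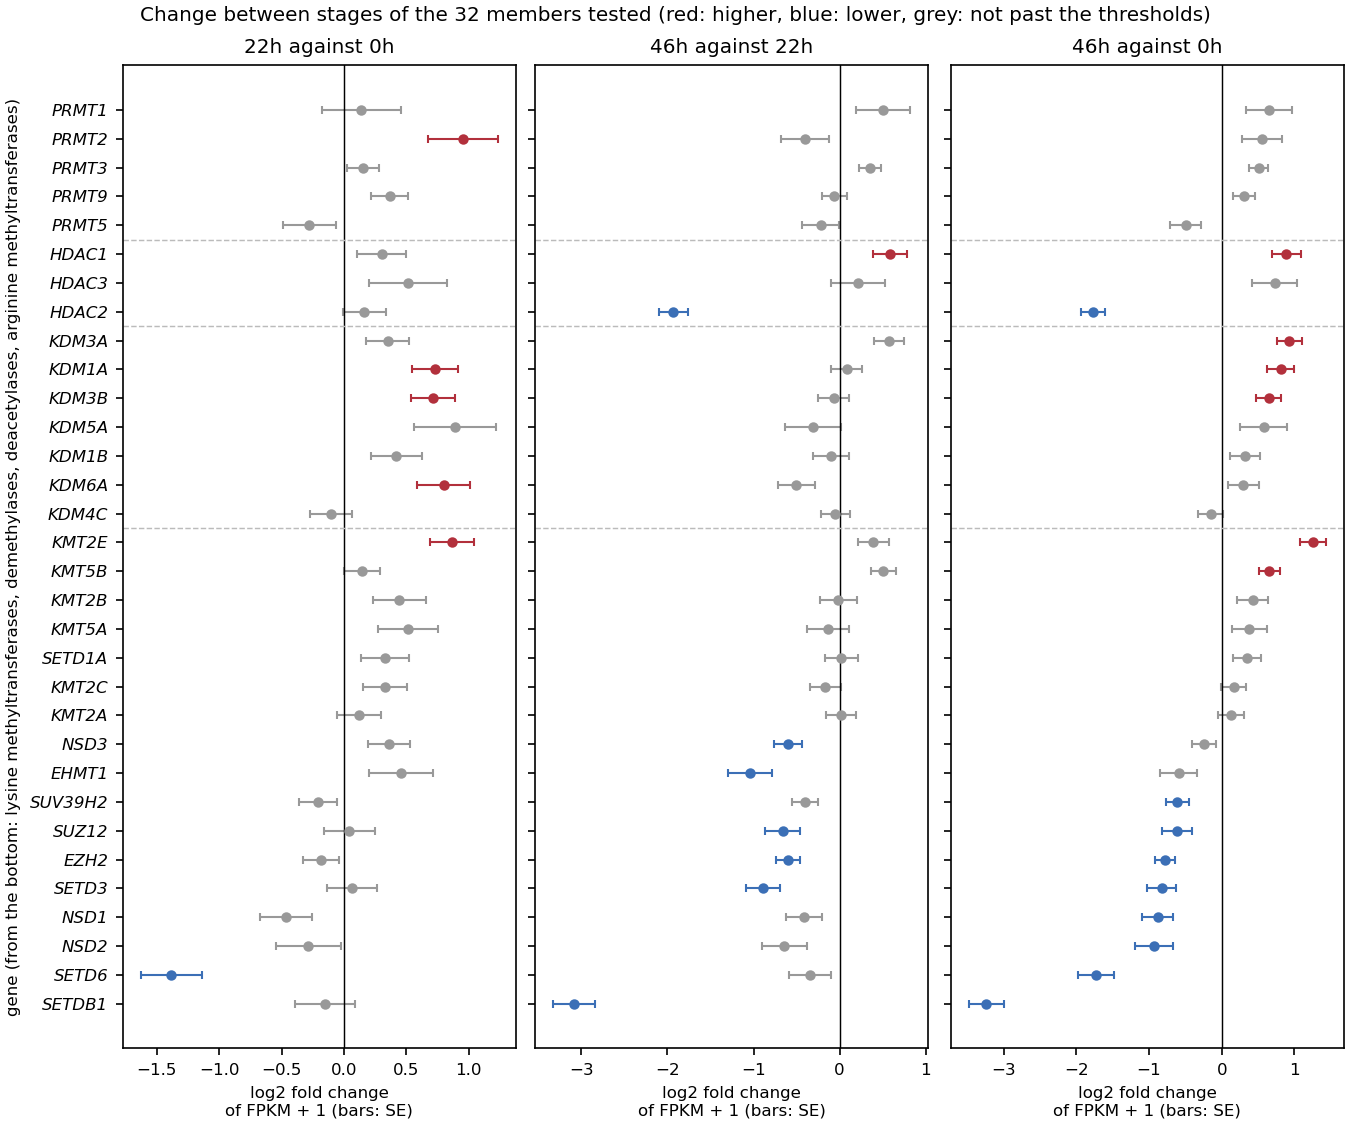
Log2 fold change of FPKM + 1 (horizontal axis) for the 32 members tested, with 1 panel per comparison and genes grouped by class along the vertical axis. Points are limma estimates and bars their SE, red points are higher and blue points lower past the thresholds. SETDB1, at the bottom, lies at -3.08 for 46h against 22h and HDAC2 at -1.93, while no other member tested reaches -1.1 in that panel.

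The calls depend on how libraries are scaled to each other. The median over all genes of the 46h against 0h change was -0.25 as deposited, 0.00 after median-of-ratios scaling, 0.37 after quantile normalization and -0.35 in TPM. The members called higher and lower numbered 6 and 9 as deposited, 13 and 6 by median of ratios, 19 and 3 after quantile normalization and 5 and 11 in TPM. At 46h against 22h these pairs were 1 and 7, 5 and 4, 7 and 2, and 0 and 9. No demethylase was lower at 46h against 0h under any of them, and after quantile normalization SETDB1 and SETD6 were the lysine methyltransferases still called lower. SETDB1, HDAC2 and SETD6 were lower, and KMT2E, KDM1A, KDM3A, HDAC1 and KDM3B higher, under all 4. The falls of EZH2, SUZ12 and SUV39H2 passed with the deposited values and TPM but not with the other 2 scalings, and SUZ12 turned to 0.045 with quantile normalization, which also called KDM1B, KDM6A and PRMT9 higher.

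**Figure D2:**
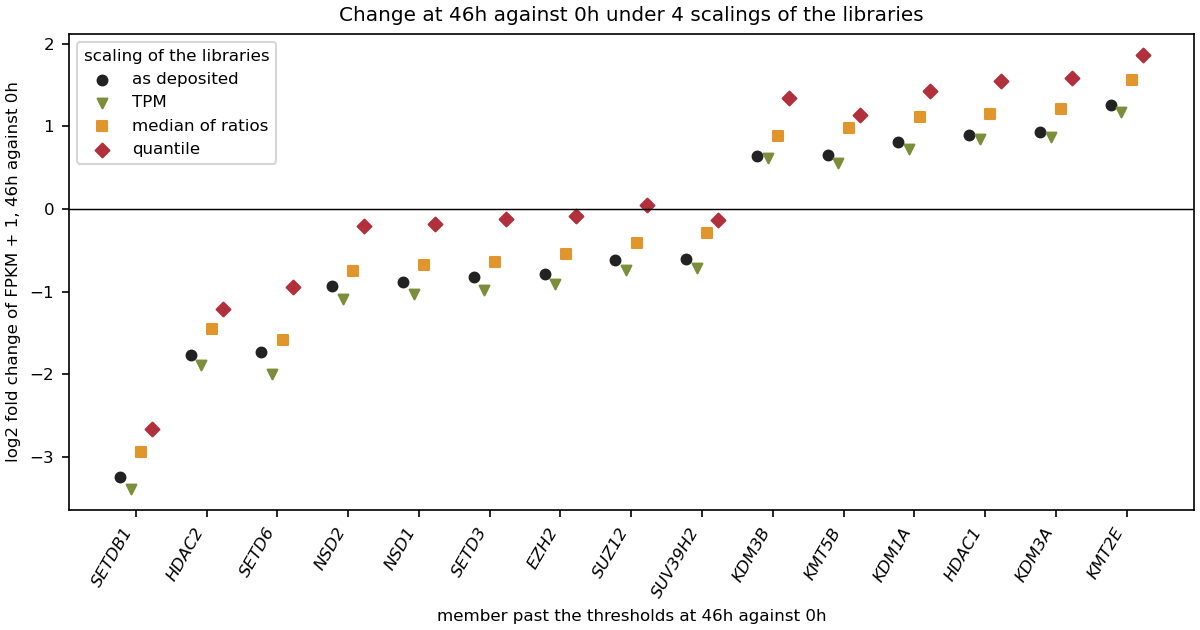
Log2 fold change at 46h against 0h (vertical axis) of the 15 members past the thresholds (horizontal axis), as deposited and under 3 other scalings of the libraries. SETDB1 lies between -3.38 and -2.67, whereas 6 of the other falls sit between -0.21 and 0.045 with quantile normalization.

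SMART-Seq2 starts cDNA from an oligo-dT primer on the poly(A) tail, so FPKM follows polyadenylated transcripts. In oocytes, stored mRNAs that carry a U-rich cytoplasmic polyadenylation element near their end are known to gain a tail during maturation. The last 100 bases of the longest RefSeq mRNA of each gene (build Sscrofa11.1) were searched on the sense strand for TTTTAT or TTTTAAT, read as DNA. Such a match is a description of letters and not a proven element, and the 3′ end used in oocytes may lie elsewhere. Among the 5825 genes tested that have a RefSeq mRNA, 21.8% held a match, with 29.4% among those higher at 46h against 0h, 15.3% among those lower and 24.5% among the others. Of the 32 members tested 12 held one, namely 3 of the 6 that were higher, 1 of the 9 that were lower and 8 of the 17 others. The windows of SETDB1, HDAC2 and KMT2E held none of these letters. The sites of the 4 members called at 46h against 0h are printed here because they sit in transcripts with opposite changes, and capitals mark the match. KMT5B lies at chr2:4768207-4768236, KDM1A at chr6:80971836-80971865, KDM3B at chr2:140418490-140418519 and SETD6 at chr6:20270680-20270709, all on the plus strand.
KMT5B: atcaTTTTAATaaattcggaaattgaaaca
KDM1A: gtttTTTTATattttgagaataaaacttct
KDM3B: tgtaTTTTAATtttgttgaagggctgattg
SETD6: tagctgTTTTATtctcagtttgaacagtga
In KMT5B the match began 27 bases from the transcript end, in KDM1A 36, in KDM3B 63 and in SETD6 24. A polyadenylation signal (AATAAA or ATTAAA in the last 40 bases) was present in the windows of the first 3 and not in that of SETD6. In KMT5B the AAT that ends the match also begins an AATAAA, so the match and this signal share bases.

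The H3K9 methyltransferases held the most abundant members at 0h and the largest fall on the log2(FPKM + 1) scale among the members tested. SETDB1 (chr4:98259801-98293238 in build Sscrofa11.1, as are the positions of the other genes) trimethylates H3K9 and, with TRIM28, silences endogenous retroviruses. It was at 58.5, 37.84, 71.38 and 81.46 FPKM in 0h replicates 1 to 4, at 77.14, 42.39, 55.37 and 46.2 at 22h, and at 5.47, 6.75, 4.87 and 4.91 at 46h. The 0h and 22h libraries overlapped, and each of the 46h libraries was far below the lowest of them. On the log2 scale the fold change was -3.08 ± 0.24 (SE) at 46h against 22h (limma adjusted p = 1.25e-07) and -3.24 ± 0.24 at 46h against 0h (limma adjusted p = 3.46e-08). The gene spans of SETDB1 and CERS2 share 704 bases. Introns are counted in this and the other overlaps given here, and overlap of exons was not examined. SMART-Seq2 does not mark strand, so any reads from exons in that stretch cannot be told apart. CERS2 was at 76.9 ± 20.3 FPKM at 0h and 103 ± 38.2 at 46h (SD, n = 4), was not called, and its part in the SETDB1 values was not tested. TRIM28, given for this link, was at 7.68 ± 2.83 FPKM at 0h, 13.7 ± 2.19 at 22h and 8.35 ± 3.24 at 46h.

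SUV39H2 (chr10:46874606-46900058) trimethylates H3K9 in heterochromatin and was the most abundant member at 0h. It was at 97.93, 81.56, 77.53 and 61.74 FPKM at 0h, at 65.85, 63.25, 70.32 and 72.78 at 22h and at 47.39, 52.17, 54.2 and 51.29 at 46h. All 46h libraries lay below all earlier ones, with a log2 fold change against 0h of -0.61 ± 0.16 (limma adjusted p = 0.00338). The call was lost without 0h replicate 1 or without 46h replicate 1 and with 3 of the other scalings. Its paralogue SUV39H1 did not exceed 0.17 FPKM.

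EHMT1, on an unplaced scaffold, which with EHMT2 dimethylates H3K9, was low. It was at 0.51, 0.52, 0.79 and 2.76 FPKM at 0h, at 2.7, 1.57, 1.41 and 1.38 at 22h and at 0.22, 0.37, 0.33 and 0.35 at 46h. The 46h libraries were below every other, and 0h replicate 4 alone among the 0h libraries was as high as 22h. Its limma fold change (log2) was -1.05 ± 0.26 at 46h against 22h (limma adjusted p = 0.00392), lost with quantile normalization, and with that normalization or without 0h replicate 4 EHMT1 was also called higher at 22h against 0h. Against 0h, EHMT1 at 46h did not pass as deposited (limma adjusted p = 0.0582) and was called lower with a pseudocount of 0.1, in TPM and without 0h replicate 1 or 0h replicate 2. EHMT2 was at 0.25 to 0.33 FPKM at 0h, then 0.33 to 0.68 at 22h and finally 0.41 to 1.22 at 46h, so that 46h was above 0h without overlap and overlapped 22h.

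HDAC2 and HDAC1, class I deacetylases that can take each other's place in the SIN3, NuRD and CoREST complexes, changed in opposite directions and came closer in level. HDAC2 (chr1:79867713-79901597) was at 60.89, 43.82, 49.09 and 48.99 FPKM at 0h, at 64.85, 47.25, 62.2 and 53.51 at 22h and at 14.99, 11.09, 16.4 and 14.31 at 46h. HDAC1 (chr6:88749611-88785220) was at 3.09, 2.76, 3.15 and 1.92 FPKM at 0h, at 2.2, 3.48, 5.24 and 3.81 at 22h and at 5.71, 5.02, 6.84 and 5.94 at 46h. The 46h libraries did not overlap those of 0h for either gene, being lower for HDAC2 and higher for HDAC1. For HDAC2 the log2 fold change of 46h over 0h was -1.77 ± 0.17 (limma adjusted p = 5.04e-07) and for HDAC1 it was 0.89 ± 0.20 (limma adjusted p = 0.00134). Between 22h and 46h HDAC2 fell by 1.93 ± 0.17 on the log2 scale (limma adjusted p = 3.97e-07), and HDAC1 was higher by 0.59 ± 0.20 (limma adjusted p = 0.0249), a call that was lost with no filter, with TPM and without any one of 22h replicate 1, 22h replicate 2, 46h replicate 3 or 46h replicate 4. HDAC1 nevertheless stayed below HDAC2 per length in every library.

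The log2 ratio of HDAC1 to HDAC2 within a library, in which a scaling factor of the library largely cancels, was between -4.10 and -3.57 at 0h, between -4.36 and -3.34 at 22h and between -1.25 and -1.01 at 46h. The difference was 2.66 at 46h against 0h and 2.52 at 46h against 22h, each with an exact two-sided permutation p of 0.0286, the smallest that 4 against 4 libraries can give. Of the 16 paralogue pairs listed, 5 had both genes at 1 FPKM or more, which gave 15 ratios. None passed after Benjamini-Hochberg adjustment (lowest adjusted p = 0.143, exact permutation test) and 3 were under 0.05 unadjusted. Beside the HDAC1 to HDAC2 ratio these held that of KDM3A to KDM3B, 0.65 higher at 46h than at 22h. The ratios of KDM1A to KDM1B, NSD1 to NSD2 and KMT2A to KMT2B had an exact permutation p of 0.0571 or above.

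**Figure D3:**
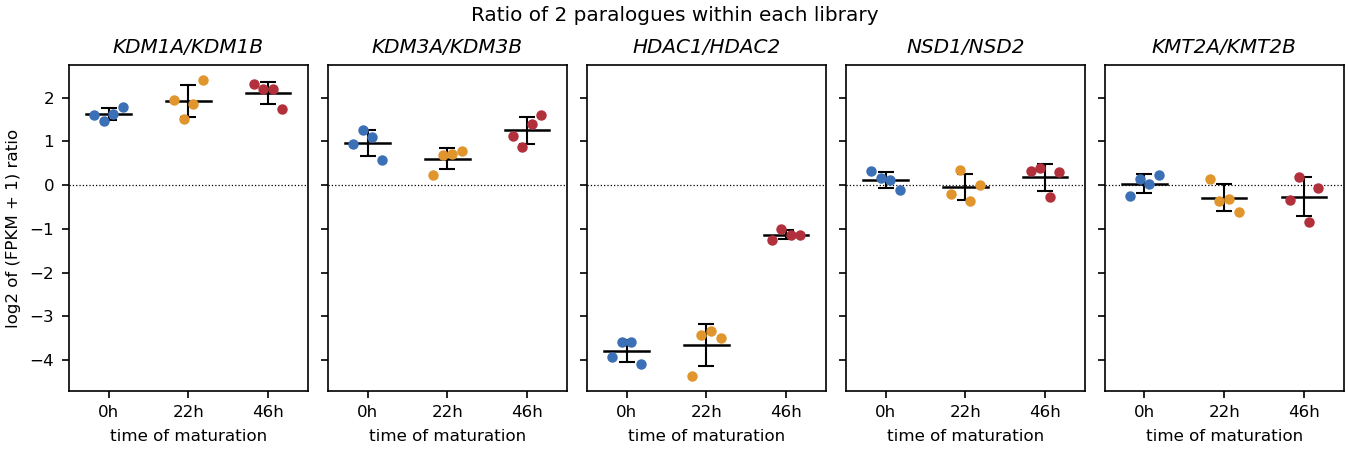
Log2 ratio of FPKM + 1 of 2 paralogues in each library (vertical axis) by time of maturation (horizontal axis), 1 panel per pair, with lines at the mean and bars for SD over 4 libraries. Only in the HDAC1/HDAC2 panel do the 46h libraries, at -1.25 to -1.01, lie more than 2 units from the 0h libraries.

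HDAC3, the deacetylase of the NCoR complex, was at 0.62 to 1.04 FPKM at 0h and 0.84 to 3.87 at 46h, and did not pass (log2 fold change 0.73 ± 0.31, limma adjusted p = 0.0552). It was called higher with the replicate number as a block, with median-of-ratios scaling, quantile normalization or TPM without mitochondrially encoded genes, in a fit of these 2 stages alone, and without 22h replicate 1, 22h replicate 3 or 46h replicate 1. Quantile normalization also called HDAC3 and PRMT3 higher at 46h against 22h. HDAC8 was at 0.49 to 1.09 FPKM at 0h and 0.60 to 1.43 at 46h, and HDAC9, a class IIa enzyme, at 0.66 to 1.24 and 0.51 to 0.93. The other class II and IV deacetylases were close to 0, with HDAC6 at most at 0.16 FPKM, HDAC7 at 0.04, HDAC5 at 0.03, HDAC10 at 0.06 and HDAC11 at 0.05.

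Transcripts of the catalytic subunit and of a core partner in PRC2, the complex that methylates H3K27, were lower at 46h with the values as deposited. EZH2 (chr9:109384976-109450943), the enzyme, was at 3.99, 4.01, 3.51 and 4.88 FPKM at 0h, at 4.04, 2.9, 3.45 and 3.55 at 22h and at 2.2, 1.87, 1.98 and 1.78 at 46h. SUZ12 (chr12:42983597-43032671), which holds the complex together, was at 2, 1.59, 2.57 and 3.57 FPKM at 0h, at 3.37, 2.95, 1.61 and 2.16 at 22h and at 1.46, 1.01, 1.31 and 1 at 46h. Both genes had all 46h libraries below all others. The log2 fold change of 46h over 0h was -0.78 ± 0.14 for EZH2 (limma adjusted p = 0.000242) and -0.62 ± 0.20 for SUZ12 (limma adjusted p = 0.0162). The EZH2 call against 22h was lost without 22h replicate 1, 46h replicate 2 or 46h replicate 4, and that of SUZ12 without 22h replicate 1, and both also after median-of-ratios or quantile scaling. The SUZ12 call against 0h was lost without 0h replicate 4, without 46h replicate 2 or without 46h replicate 4. The gene spans of SUZ12 and CRLF3 share 7799 bases, introns included, and any reads from exons in that stretch cannot be told apart. CRLF3 was at 77.6 ± 9.05 FPKM at 0h, 123 ± 6.80 at 22h and 54.3 ± 10.2 at 46h (SD, n = 4).

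The remaining PRC2 genes taken by the rule were low. EED, which binds the methylated tail, was at 0.36 to 0.62 FPKM at 0h and 0.29 to 0.39 at 46h. EZH1, a less active enzyme, was at 0.30 to 0.49 and 0.26 to 0.71. Among 4 tested PRC2 subunits outside the rule, 2 were higher and 1 lower at 46h against 0h. RBBP7, a histone-binding protein also found in deacetylase complexes, was at 343 ± 182 FPKM at 0h and 1058 ± 134 at 46h. MTF2 was at 45.9 ± 4.78 and 132 ± 11.1, and PHF19 at 8.82 ± 3.32 and 1.67 ± 0.707 (SD, n = 4).

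KDM6A (chrX:39953764-40154197), the X-linked demethylase of H3K27, was highest at 22h. It was at 1.6, 1.36, 2.05 and 2.98 FPKM at 0h, at 5.22, 3.92, 3.35 and 4.12 at 22h and at 3.8, 1.63, 2.81 and 2.52 at 46h. The 22h libraries were all above the 0h libraries, and the 46h libraries overlapped both. On the log2 scale the fold change at 22h against 0h was 0.80 ± 0.21 (limma adjusted p = 0.0108), and that at 46h against 22h, -0.50 ± 0.21, did not pass as deposited (limma adjusted p = 0.0632) and was called lower in TPM and without 46h replicate 1. KDM6B, with the same substrate, did not exceed 0.10 FPKM.

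Among the H3K4 enzymes, KMT2E rose most over maturation. KMT2E (chr9:104876301-105007161) belongs to the MLL family by sequence, although its SET domain is regarded as inactive. It was at 9.15, 7.56, 11.56 and 13.27 FPKM at 0h, at 18.8, 19.64, 20.68 and 18.34 at 22h and at 26.17, 24.53, 31.16 and 21.67 at 46h. The 3 stages did not overlap, in the order 0h, 22h and 46h. Its limma fold change (log2) was 0.86 ± 0.18 at 22h against 0h (limma adjusted p = 0.00234) and 1.25 ± 0.18 at 46h against 0h (limma adjusted p = 2.47e-05), and the step from 22h to 46h did not pass as deposited (limma adjusted p = 0.0841) and was called higher after median-of-ratios or quantile scaling. KMT2E shares 29293 of its 130861 bases with another protein-coding gene model, whose level was not analysed here.

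The MLL enzymes themselves were at lower levels and did not pass in any comparison with the values as deposited. At 46h against 0h KMT2B was called higher after median-of-ratios or quantile scaling, and KMT2A, KMT2C and SETD1A after quantile scaling, which also called KMT2B at 22h against 0h. KMT2C was at 4.47 to 7.98 FPKM at 0h, then 6.54 to 9.17 at 22h and finally 6.22 to 7.93 at 46h. KMT2A, KMT2B and SETD1A lay between 0.67 and 3.55 FPKM in all libraries. SETD1B, a paralogue of SETD1A, was at 0.38 to 1.03 FPKM at 0h and 0.99 to 1.58 at 22h, and was listed at 0 in all 46h libraries. WDR5, a core subunit that the MLL and SET1 enzymes share, was at 69.2 ± 24.4 FPKM at 0h, 18.6 ± 10.8 at 22h and 1.36 ± 0.536 at 46h, with a log2 fold change of -4.87 (limma adjusted p = 1.66e-07). Of 10 tested partners of these enzymes WDR5 and WDR82, a subunit of the SET1 complexes, were lower at 46h against 0h and none was higher.

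KDM1A (chr6:80903407-80971875), known as LSD1, removes methyl groups from H3K4 with the help of CoREST. It was at 7.03, 6.2, 9.06 and 7.98 FPKM at 0h, at 14.66, 12.35, 11.97 and 13.58 at 22h and at 17.21, 10.02, 17.16 and 12.55 at 46h. Every later library was above every 0h library, and 22h and 46h overlapped. The log2 fold change was 0.73 ± 0.19 at 22h against 0h (limma adjusted p = 0.00859) and 0.81 ± 0.19 at 46h against 0h (limma adjusted p = 0.00155).

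KDM1B, the paralogue that in mouse oocytes is needed for maternal DNA methylation imprints, was at 1.6 to 2.25 FPKM at 0h, then 1.76 to 3.68 at 22h and finally 1.39 to 3.07 at 46h and did not pass. KDM5A, which removes trimethylation from H3K4, was at 15.21, 9.39, 20.77 and 40.16 FPKM at 0h, at 47.31, 36.26, 33.64 and 27.5 at 22h and at 34.16, 30.91, 27.41 and 22.44 at 46h. The 0h replicate 4 was as high as the 22h libraries, and the other 0h libraries were below all later ones. With all libraries KDM5A did not pass at 22h against 0h (log2 fold change 0.89 ± 0.33, limma adjusted p = 0.0518), and without 0h replicate 4 it was called higher at 22h and at 46h. It was also called at 22h with each of the other scalings and with the filter of 5 FPKM, and at 46h against 0h with median-of-ratios scaling and quantile normalization. KDM5B did not exceed 0.09 FPKM.

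The H3K9 demethylases KDM3A and KDM3B, which act on the mono- and dimethylated lysine, were both higher at 46h than at 0h. KDM3A (chr3:58300109-58355000) was at 4.61, 3.45, 4.88 and 3.58 FPKM at 0h, at 4.57, 6.01, 5.49 and 6.05 at 22h and at 8.47, 6.6, 11.18 and 9.05 at 46h. KDM3B (chr2:140346145-140418556) was at 1.93, 0.86, 1.76 and 2.07 FPKM at 0h, at 3.71, 3.35, 2.98 and 3.1 at 22h and at 3.32, 3.13, 3.64 and 2.32 at 46h. The 46h libraries of KDM3A were above all others, whereas KDM3B was already higher in all 22h libraries than at 0h. From 22h to 46h KDM3A had a log2 fold change of 0.58 ± 0.17 (limma adjusted p = 0.0134), just under the fold threshold, and it was called higher in 8 alternatives. For KDM3A the log2 fold change of 46h over 0h was 0.93 ± 0.17 (limma adjusted p = 0.000305). For KDM3B it was 0.71 ± 0.18 at 22h (limma adjusted p = 0.00773) and 0.64 ± 0.18 at 46h against 0h (limma adjusted p = 0.00577), and both KDM3B calls were lost without 0h replicate 2, the later one also without 46h replicate 3. KDM4C, for trimethylated H3K9 and H3K36, was at 0.66 to 1.67 FPKM in all libraries and did not pass. KDM7A was at 0.36 to 1.49 FPKM, and KDM4A and KDM4B did not exceed 0.11 and 0.48.

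**Figure D4:**
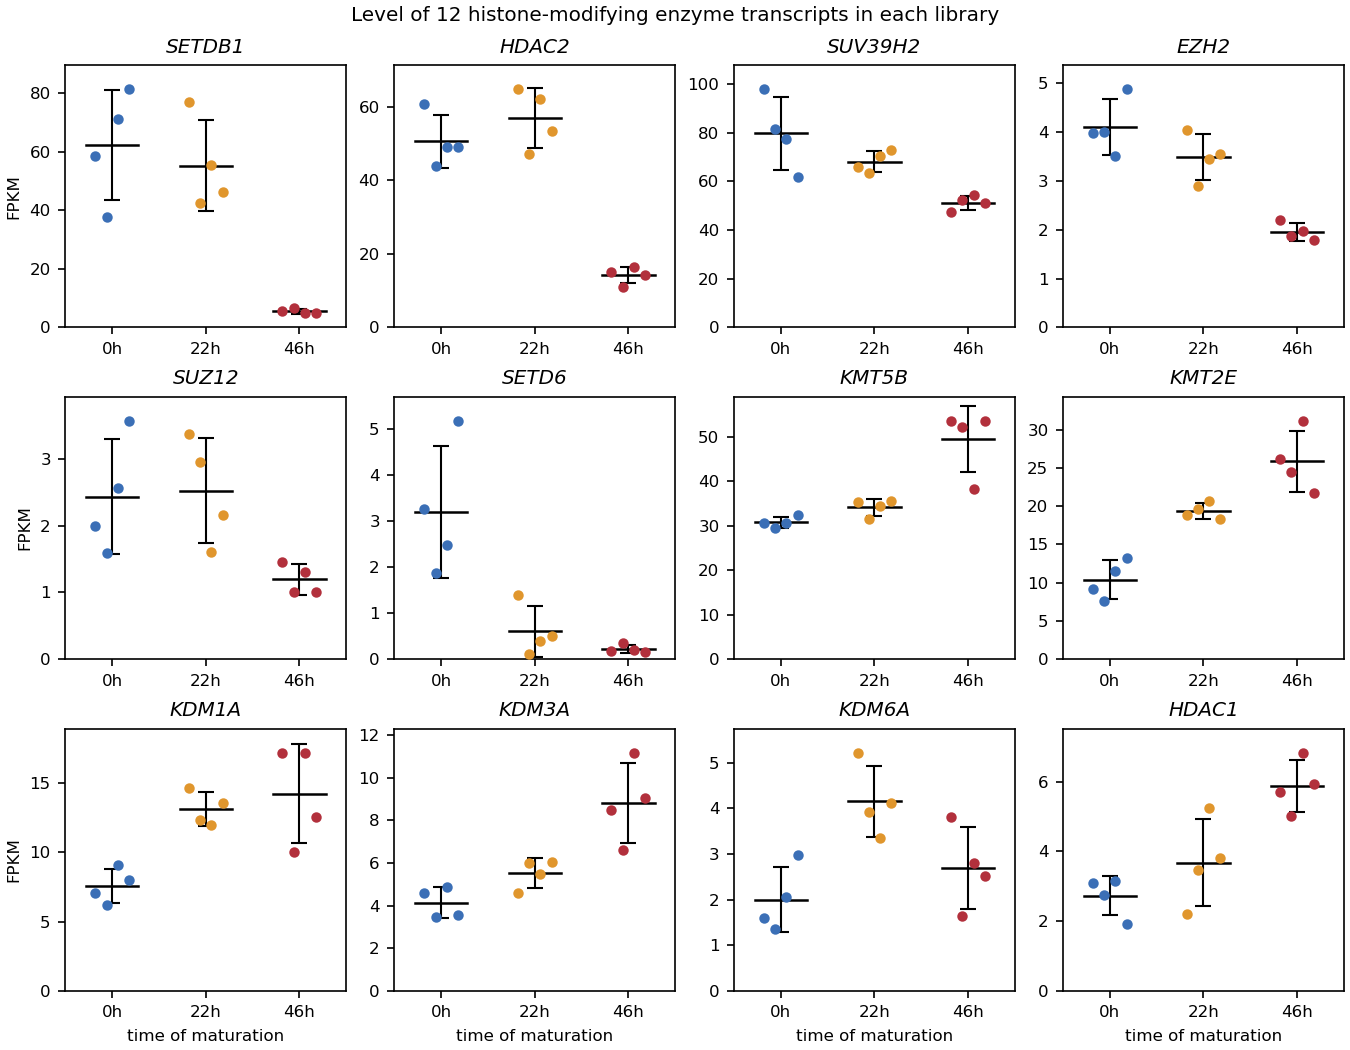
FPKM (vertical axis, from 0) of 12 members in each library by time of maturation (horizontal axis), with lines at the mean and bars for SD over 4 libraries. SETDB1 and HDAC2 are low in the 46h libraries alone, KMT2E, KDM1A and KDM6A are higher in all 22h libraries than at 0h, and SETD6 is already low at 22h.

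The H4K20 enzyme KMT5B (chr2:4710510-4768237), which adds the second and further methyl groups, was at 30.63, 29.49, 30.64 and 32.46 FPKM at 0h, at 35.31, 31.44, 34.4 and 35.58 at 22h and at 53.59, 52.26, 38.35 and 53.6 at 46h. All 46h libraries were above all others, although replicate 3 stood well below the rest. On the log2 scale the fold change at 46h against 0h was 0.65 ± 0.15 (limma adjusted p = 0.00135), a fold just above the threshold, and with TPM it fell short. Against 22h the value of 0.51 ± 0.15 (limma adjusted p = 0.0105) was under the fold threshold and passed it after median-of-ratios or quantile scaling and without 46h replicate 3. At 46h KMT5B was close to SUV39H2 in level, at 49.5 ± 7.43 and 51.3 ± 2.85 FPKM (SD, n = 4), with overlapping libraries. KMT5A, which adds the first methyl group, was at 1.25, 0.92, 1.41 and 3.42 FPKM at 0h, then 2.3 to 3.17 at 22h and finally 1.73 to 3.56 at 46h. It passed at 22h and at 46h against 0h without 0h replicate 4 or with quantile normalization, and at 46h also with median-of-ratios scaling. KMT5C did not exceed 0.19 FPKM.

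The H3K36 methyltransferases of the NSD family, which dimethylate this lysine, were lower at 46h, NSD1 and NSD2 against 0h and NSD3 against 22h, and none of these calls held after quantile normalization. NSD1 (chr2:80649882-80810934) was at 2.09, 1.38, 2.52 and 4.2 FPKM at 0h, at 1.8, 1.74, 1.34 and 1.07 at 22h and at 0.98, 1.06, 0.59 and 0.82 at 46h. NSD2 (chr8:938832-1018032) was at 1.46, 1.11, 2.25 and 4.61 FPKM at 0h, at 2.2, 1.17, 2 and 1.06 at 22h and at 0.58, 0.58, 0.93 and 0.49 at 46h. For both, each 46h library was below all others, and the highest 0h value was that of replicate 4. By limma, the log2 change at 46h against 0h was -0.88 ± 0.21 for NSD1 (limma adjusted p = 0.00229) and -0.93 ± 0.26 for NSD2 (limma adjusted p = 0.00656). At 46h against 22h NSD2 did not pass as deposited (limma adjusted p = 0.056) and was called lower in 7 alternatives, and NSD1 was called lower at 22h against 0h without 0h replicate 2. NSD1 shares 1617 of its 161053 bases with RAB24.

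NSD3 (chr15:48119132-48245673) was at 2.85, 2.07, 2.47 and 1.7 FPKM at 0h, at 2.69, 2.56, 4.4 and 3.25 at 22h and at 1.71, 1.97, 1.66 and 1.66 at 46h. It was lower in all 46h libraries than in those of 22h and overlapped 0h. The log2 fold change was -0.60 ± 0.17 at 46h against 22h (limma adjusted p = 0.00854), lost without 22h replicate 3 and after quantile or median-of-ratios scaling. NSD3 overlaps LETM2 and DDHD2, which stayed between 2.88 and 4.86 FPKM in their stage means. SETD2, the enzyme of H3K36 trimethylation, did not exceed 0.15 FPKM, and DOT1L, for H3K79, reached at most 0.51.

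SETD6 (chr6:20266540-20270709), a SET domain protein known to methylate the NF-κB subunit RELA, was the only member called lower by 22h. It was at 3.26, 1.87, 2.47 and 5.17 FPKM at 0h, at 1.39, 0.12, 0.4 and 0.51 at 22h and at 0.17, 0.34, 0.19 and 0.16 at 46h. All 0h libraries were above all later ones, which overlapped each other. On the log2 scale the fold change was -1.38 ± 0.25 at 22h against 0h (limma adjusted p = 0.00089) and -1.73 ± 0.25 at 46h against 0h (limma adjusted p = 2.76e-05).

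SETD3 (chr7:120412545-120486687), which methylates a histidine of actin, was at 2.45, 1.2, 2.08 and 3.05 FPKM at 0h, at 1.98, 1.64, 2.63 and 2.94 at 22h and at 0.57, 0.56, 1.06 and 0.9 at 46h. The 46h libraries were below all others, while 0h and 22h overlapped. Its limma fold change (log2) was -0.83 ± 0.20 at 46h against 0h (limma adjusted p = 0.00245) and -0.89 ± 0.20 against 22h (limma adjusted p = 0.00229), and both were lost with quantile normalization. SETD5, SETD4 and SETD9 were at most at 0.95, 0.84 and 0.41 FPKM.

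Among the 5 arginine methyltransferases tested by limma only PRMT2, a coactivator of nuclear receptors, was called with the values as deposited. PRMT2 was at 10.14, 8.13, 13.14 and 25.19 FPKM at 0h, at 22.97, 25.24, 33.26 and 23.59 at 22h and at 14.73, 18.91, 26.18 and 19.55 at 46h. The 0h replicate 4 lay within the 22h range and the others below it, with a log2 fold change at 22h against 0h of 0.95 ± 0.28 (limma adjusted p = 0.019). The call was lost with no filter on low values and without 0h replicate 1, 0h replicate 2 or 22h replicate 3. At 46h against 0h PRMT2 did not pass as deposited (limma adjusted p = 0.0995) and was called higher after median-of-ratios or quantile scaling, in TPM without mitochondrially encoded genes and without 0h replicate 4. PRMT1, which makes most asymmetric dimethylarginine, was at 2.29 to 6.63 FPKM at 0h and 5.09 to 13.9 at 46h (limma adjusted p = 0.0854), and was called higher with the replicate block, with median-of-ratios or quantile scaling and without 0h replicate 4. At 46h against 22h it was called after median-of-ratios or quantile scaling. PRMT5, the main enzyme of symmetric dimethylarginine, was at 3.74 to 5.52 at 0h and 1.86 to 3.95 at 46h (limma adjusted p = 0.0532), and was called lower in TPM and without 46h replicate 3. PRMT3, which methylates a ribosomal protein, was higher without overlap at 46h, at 0.66 to 0.93 FPKM at 0h and 1.37 to 1.89 at 46h (limma adjusted p = 0.00345), and its log2 fold change of 0.51 ± 0.13 was under the fold threshold. PRMT3 was called higher with a pseudocount of 0.1, after median-of-ratios or quantile scaling and in TPM without mitochondrially encoded genes. PRMT9, for a splicing factor, was at 0.8 to 1.18 FPKM at 0h and 1.36 to 1.61 at 46h.

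Members under 1 FPKM were compared on the log2(FPKM + 1) scale by exact permutation (two-sided), with 70 arrangements and a smallest p of 0.0286, for the 26 of 33 that were above 0 in at least 4 libraries. The test called 1 higher and 0 lower at 22h against 0h, 0 higher and 3 lower at 46h against 22h, and 1 higher and 4 lower at 46h against 0h, all at that smallest p without adjustment. Among all genes under 1 FPKM that could be tested in this way, 1.17% were higher and 7.39% lower at 22h against 0h, 0.985% and 13.5% at 46h against 22h, and 1.56% and 23.2% at 46h against 0h. KDM2A, a demethylase of H3K36, was at 0.21 to 0.41 FPKM at 0h, then 0.60 to 0.75 at 22h and finally 0.19 to 0.49 at 46h, so its 22h libraries were above those of both other stages, although after median-of-ratios scaling the later comparison no longer passed (exact permutation p = 0.0857). The same scaling added SETD1B as higher at 22h against 0h and KDM7A as higher at 46h against 0h. SETD1B and SETD7, an H3K4 monomethyltransferase, were lower at 46h than at both earlier stages, with SETD7 at 0.19 to 1.18 FPKM at 0h, then 0.51 to 1.05 at 22h and finally 0.01 to 0.11 at 46h. PRMT6 had 0.76 to 1.04 FPKM before culture and 0.19 to 0.48 at its end, PRMT7 had 0.54 to 1.12 and 0.14 to 0.26, and the gain at 46h was EHMT2. JMJD6, SETDB2 and KDM8 were at most at 1.41, 0.96 and 0.58 FPKM.

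Summed over each class, the lysine methyltransferases held 220 ± 26.6 FPKM at 0h, 215 ± 20.2 at 22h and 158 ± 2.29 at 46h (SD, n = 4). The demethylases held 42.0 ± 16.2, 68.9 ± 10.1 and 63.2 ± 8.89 FPKM, and the deacetylases 55.9 ± 7.65, 63.9 ± 8.61 and 24.0 ± 3.85. The arginine methyltransferases held 26.8 ± 9.84, 39.0 ± 7.49 and 34.4 ± 9.84 FPKM. The 46h libraries were thus below all 0h libraries in the lysine methyltransferases and deacetylases, while the arginine methyltransferase libraries overlapped at all stages. These sums rest on a few members. Without HDAC2 the deacetylases held 5.24 ± 0.420 FPKM at 0h and 9.85 ± 2.07 at 46h, without overlap. Without SETDB1 and SUV39H2, which were lower at 46h, the lysine methyltransferase class held 77.9 ± 15.2 and 101 ± 3.67 FPKM, without overlap. With KMT5B, which was higher, left out too, so without its 3 most abundant members at 0h, it held 47.1 ± 14.0 FPKM at 0h and 51.8 ± 7.05 at 46h, and the libraries overlapped. The sum over all 65 members was 345 ± 52.4 FPKM at 0h, 387 ± 34.0 at 22h and 280 ± 17.5 at 46h. Without SETDB1, HDAC2 and SUV39H2, all called lower at 46h against 0h, it was 152 ± 41.0, 207 ± 13.2 and 209 ± 15.2. The 0h libraries, at 109.8 to 207, overlapped those of 46h, at 196.7 to 228.6. Leaving out members already called lower favours a higher 46h sum in what remains, here and in the classes above. These reduced sums are therefore no test of the remaining members.

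**Figure D5:**
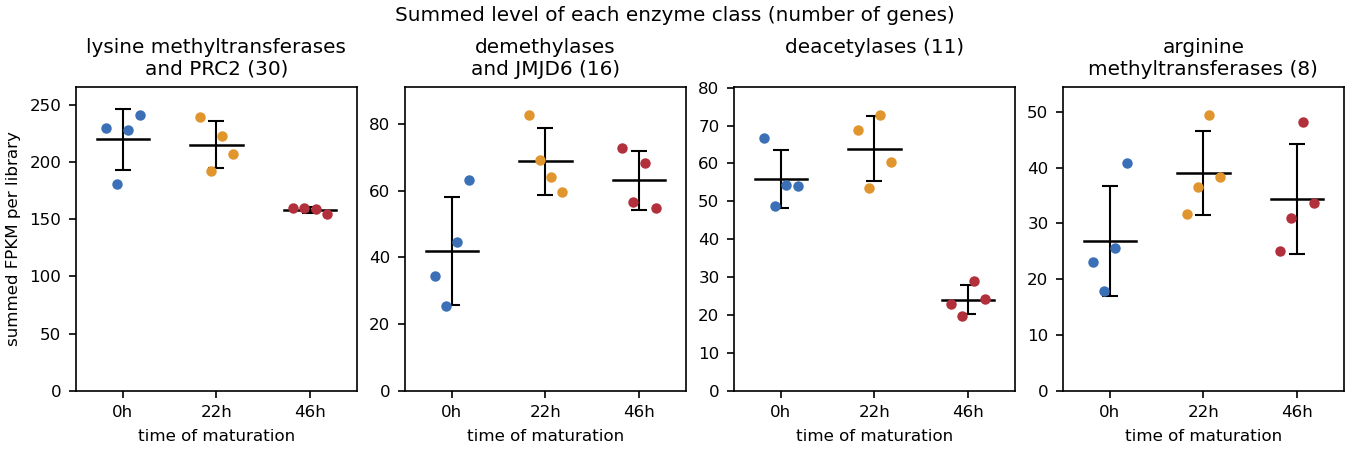
Summed FPKM per library (vertical axis, from 0) of each enzyme class by time of maturation (horizontal axis), with lines at the mean and bars for SD over 4 libraries. The 46h deacetylase sums, 19.8 to 29.1, lie below the lowest 0h sum of 48.7, and the demethylase sums of 0h range from 25.6 to 63.2.

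A few transcripts carried much of the members' summed FPKM. SETDB1 made up 17.8% ± 3.16 of the members' summed FPKM at 0h and 1.98% ± 0.395 at 46h, and HDAC2 14.9% ± 2.19 and 5.06% ± 0.603 (SD, n = 4). KMT5B went from 9.07% ± 1.18 to 17.8% ± 3.51 and KMT2E from 2.99% ± 0.370 to 9.22% ± 0.877. SUV39H2 stayed a large part, at 23.8% ± 6.44 and 18.4% ± 1.23.

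Partner genes and genes of related enzyme families were taken from lists written by hand, with the values as deposited and no other scaling. Their counts stand beside shares of 16.8% higher and 39.1% lower among all genes tested at 46h against 0h, and no list was tested against these. Of 17 tested partners of the deacetylases 2 were higher and 7 lower at 46h against 0h. MTA3 of NuRD was at 4.26 ± 0.570 FPKM at 0h and 11.1 ± 1.72 at 46h, and ARID4A of the SIN3 complex at 114 ± 4.99 and 209 ± 22.5. The largest fall among these partners was that of GPS2 of the NCoR complex, from 7.17 ± 0.800 to 0.692 ± 0.447 FPKM (SD, n = 4). Of 7 tested subunits of the PRC1 complexes, 2 were higher and 1 lower. RNF2, their ubiquitin ligase, was at 168 ± 20.3 FPKM at 0h and 417 ± 63.5 at 46h. PCGF1 was at 47.6 ± 6.75 and 101 ± 14.9, and CBX8 at 15.2 ± 3.81 and 0.275 ± 0.0580.

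Of 7 tested histone acetyltransferases 1 was higher and 3 lower at 46h against 0h. HAT1, which acetylates newly made histone H4, was at 805 ± 225 FPKM at 0h, 679 ± 54.5 at 22h and 104 ± 23.8 at 46h, with a log2 fold change of -2.92 (limma adjusted p = 4.34e-08). Of 4 tested sirtuins, a family of NAD-dependent enzymes, SIRT4 was higher and SIRT7 lower. All 3 tested genes of methyl donor supply were lower, among them MAT2B, a regulatory subunit of the enzyme that makes S-adenosylmethionine, at 136 ± 40.7 FPKM at 0h and 35.8 ± 4.55 at 46h, and MAT2A, its catalytic subunit, at 36.9 ± 6.45 and 19.2 ± 3.37. Of 8 other tested SET and Jumonji domain genes outside the rule 0 were higher and 3 lower, and SMYD5 fell most, from 10.9 ± 1.45 to 0.348 ± 0.237 FPKM (SD, n = 4). Of 6 tested HP1 proteins and H3K9 readers CBX5 was lower, from 4.56 ± 2.50 to 1.40 ± 0.523 FPKM (SD, n = 4), and none was higher.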

How the data were processed

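Libraries were made by the SMART-Seq2 method from 20 oocytes each. The authors trimmed the reads, aligned them with STAR to the swine genome (Sscrofa11) and deposited FPKM values from RSEM, 1 value per Ensembl gene and library. The files hold no counts, so depth was judged from the steps between low values and no counting interval is given, and the precision is that of the spread over 4 libraries. Genes were named from the reference annotation and, for 172 further identifiers, from a supplementary name list. Values were taken as log2(FPKM + 1), and all 7013 genes whose mean reached 1 FPKM were fitted with limma 3.58.1 in R 4.3.3 (trend, stage as the only factor, all 12 libraries, two-sided, Benjamini-Hochberg), which was tested on simulated data. The study tested counts, whereas FPKM needs a log-scale model, and its thresholds (fold change over 1.5, adjusted p under 0.05) were kept. Members under the filter and ratios of paralogues were compared by exact permutation tests. Members past the thresholds are given with all library values, the others with their range, and partner genes from the 4 largest rises and falls of each list. Members and lists were chosen with earlier results of these data known. Alternatives tried were another pseudocount (0.1), no filter, a filter of 5 FPKM, 4 scalings, other fits and leaving out each library. Sites were read from RefSeq on Sscrofa11.1. Tables were made with Python 3.11.15 and pandas 2.3.3, and figures with matplotlib 3.10.9.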

Additional observations from a re-analysis of the deposited data

Results flagged for a closer look

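In 9 of 96 groups of 4 libraries (32 members at 3 stages), the highest or lowest library stood apart from the other 3 by more than the 95% limit of Dixon's gap test, which chance passes in about 1 group in 20. For KMT5B this was 46h replicate 3 at 38.35 FPKM, the lowest of its stage. For NSD3 it was 46h replicate 2 at 1.97 FPKM, and for SETD6 46h replicate 2 at 0.34, each the highest. KDM1B was highest in 0h replicate 3 at 2.25 FPKM and KMT2B lowest in 0h replicate 2 at 0.78. SETD1A was highest in replicate 3 both at 22h, with 1.82 FPKM, and at 46h, with 2.63. EHMT1 was highest in 0h replicate 4 at 2.76 FPKM and in 22h replicate 1 at 2.7. Of these groups, 1 was set by 0h replicate 4, the library with the most genes at 1 FPKM or above.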

How the results depend on the processing

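Of the 29 member changes past the thresholds, 13 kept their call under every alternative in which they were tested. Over 621 values under alternatives, 579 kept direction and call, 41 kept direction only and 1 reversed (SUZ12 at 46h against 0h, 0.045 with quantile normalization). Quantile normalization gave 10 calls at 22h against 0h (9 higher), 7 higher and 2 lower at 46h against 22h, and 19 higher and 3 lower at 46h against 0h. Median-of-ratios scaling gave 5 higher and 4 lower at 46h against 22h, 13 higher at 46h against 0h and 2 calls among members under the filter at 22h against 0h. The filter of 5 FPKM, which left 11 members, gave 0 lower at 22h against 0h, 2 calls at 46h against 22h (0 higher, 2 lower) and 7 at 46h against 0h (3 lower). For members higher at 46h against 22h, 1 as reported, a pseudocount of 0.1 gave 2, no filter 0, TPM 0, TPM without mitochondrially encoded genes 2 and no fold threshold 4. Leaving out 1 library gave 5 to 9 calls at 22h against 0h (3 to 8 higher, 1 to 2 lower), 5 to 10 at 46h against 22h (0 to 2 higher, 5 to 8 lower) and 14 to 18 at 46h against 0h (5 to 10 higher, 8 to 10 lower). At 22h and at 46h against 0h the highest counts of higher members came without 0h replicate 4, with EHMT1, KDM5A and KMT5A added at 22h, the lowest at 22h (3) without 0h replicate 2, and the 5 calls at 46h against 22h without 22h replicate 1. The cause of these shifts was not tested. Replicate numbers did not pair the libraries across all stages (correlations of same-numbered libraries from -0.47 to 0.38). Between 22h and 46h all same-numbered correlations were positive (0.0088 to 0.38), with different-numbered ones from -0.41 to 0.17. With the replicate number as a block 6, 8 and 17 members were called against 6, 8 and 15, with HDAC3 and PRMT1 added at 46h against 0h. Leaving out a library changed no direction of the HDAC1 to HDAC2 difference at 46h against 0h (2.56 to 2.73). Depth limits what can be said of members under 1 FPKM.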
